A study of Mus musculus with 18 samples.

Results

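A set of 10 genes that mark the endothelial cells of the liver was followed in 18 mouse livers. They are 10 of the 55487 genes in the count table and were chosen by symbol. The 5 sinusoidal genes are Stab1, Stab2, Lyve1, Clec4g and Kdr, and the 5 general or capillary genes are Pecam1, Eng, Vwf, Esm1 and Cd34. The rule uses no measured value, although the set was drawn up with earlier results of these data known. All 10 passed the filter on low counts in each comparison.

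The livers came from male C57BL/6J mice that received an AAV8 vector as young adults, 1 week before a 16 week diet. The vector carried GFP or human LIPA behind TBG, a promoter active in hepatocytes, so every group shares the virus and its injection. CON-GFP mice received GFP and a purified control diet, FPC-GFP mice received GFP and the FPC diet (fat with added fructose, palmitate and cholesterol, plus sugar in the drinking water), and FPC-LIPA mice received LIPA and the FPC diet. Each group had 6 mice and each mouse 1 library of whole liver RNA. LIPA encodes lysosomal acid lipase, which hydrolyzes triacylglycerols and cholesteryl esters in lysosomes. Livers with LIPA on the control diet were not analysed here, and reads of the human transgene were not measured by the mouse gene counts.

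Liver sinusoids are lined by an endothelium with open pores and little basement membrane, which lets plasma reach the hepatocytes. Its cells take up waste molecules through scavenger receptors such as stabilins, and they depend on VEGF signals. When sinusoids lose their pores and gain a basement membrane, a state called capillarization that is known from chronic liver disease, the cells take on markers of ordinary capillaries such as CD34.

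The genes lie on GRCm38 as follows. Stab1 (ENSMUSG00000042286) is at chr14:31139013-31168641 and Stab2 (ENSMUSG00000035459) at chr10:86841198-87008025. Lyve1 (ENSMUSG00000030787) is at chr7:110850607-110863239, Clec4g (ENSMUSG00000074491) at chr8:3707064-3720651 and Kdr (ENSMUSG00000062960) at chr5:75932827-75978458. Pecam1 (ENSMUSG00000020717) is at chr11:106654217-106750628 and Eng (ENSMUSG00000026814) at chr2:32646595-32682669. Vwf (ENSMUSG00000001930) is at chr6:125546774-125686679, Esm1 (ENSMUSG00000042379) at chr13:113209659-113218098 and Cd34 (ENSMUSG00000016494) at chr1:194938819-194961279. Eng, Vwf, Esm1 and Cd34 are on the plus strand and the other members on the minus strand. All are protein coding genes, and the values below count reads on their exons.

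The RefSeq promoter table (GRCm38.p6) held 7 of the 10 genes, with Lyve1, Pecam1 and Vwf missing. The 250 bases before the start are shown for Esm1 and Cd34, the genes that LIPA livers had above FPC-GFP livers on the same diet, and for the sinusoidal genes Stab1 and Kdr beside them. Capitals mark matches on either strand. The letters searched were CNGGAAG for ETS factors, which bind many endothelial genes. For GATA factors they were AGATAA. A GC box was searched as GGGCGG, and a TATA box as TATAAA. The matches in the windows printed do not overlap. The windows are chr13:113209409-113209658 (plus strand) for Esm1, chr1:194938571-194938820 (plus strand) for Cd34, chr14:31168642-31168891 (minus strand) for Stab1 and chr5:75978456-75978705 (minus strand) for Kdr.
Esm1: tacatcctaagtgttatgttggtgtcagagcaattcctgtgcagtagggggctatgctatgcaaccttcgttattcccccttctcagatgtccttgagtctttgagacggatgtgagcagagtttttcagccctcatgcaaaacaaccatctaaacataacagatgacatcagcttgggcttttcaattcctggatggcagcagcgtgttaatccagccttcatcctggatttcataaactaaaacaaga
Cd34: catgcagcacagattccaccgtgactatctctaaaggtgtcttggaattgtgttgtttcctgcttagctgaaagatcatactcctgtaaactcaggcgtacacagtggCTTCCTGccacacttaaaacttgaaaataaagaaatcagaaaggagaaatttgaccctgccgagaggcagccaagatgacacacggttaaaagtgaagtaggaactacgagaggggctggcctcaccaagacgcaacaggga
Stab1: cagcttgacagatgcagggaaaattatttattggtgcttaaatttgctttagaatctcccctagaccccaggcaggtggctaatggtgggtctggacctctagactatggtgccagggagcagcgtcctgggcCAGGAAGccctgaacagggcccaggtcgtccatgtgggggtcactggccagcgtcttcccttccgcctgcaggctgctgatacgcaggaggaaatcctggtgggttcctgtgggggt
Kdr: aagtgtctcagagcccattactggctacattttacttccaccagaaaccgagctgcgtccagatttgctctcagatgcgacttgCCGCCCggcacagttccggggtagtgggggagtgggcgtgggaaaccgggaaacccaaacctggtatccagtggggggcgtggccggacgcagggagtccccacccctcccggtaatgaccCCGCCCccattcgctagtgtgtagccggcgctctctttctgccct
The ETS letters were present 1 time before Cd34, 142 bases from its start, and 1 time before Stab1, 117 bases from its start. They were absent from the windows of Esm1, Stab2, Clec4g, Kdr and Eng. Among 32851 promoters of the same length, 26.6% held them. The GATA letters, in 9.99% of promoters, were in none of the 7 windows. Kdr had 2 GC boxes (32.7% of promoters) and Clec4g 1 TATA box (12.4%). The window of Esm1 had a GC content of 44.0% and that of Kdr 61.6%. No letters searched were common to Esm1 and Cd34.

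Total counts per library lay between 16632146 and 37739301. FPC-LIPA 36, 37 and 39 stood apart from the rest. The 85 ribosomal protein genes took 6.58%, 8.21% and 8.29% of their counts, in that order, against 2.19% to 2.99% in the other FPC-LIPA libraries, 1.46% to 1.82% in FPC-GFP and 1.77% to 2.58% in CON-GFP. Results of FPC-LIPA are therefore given with and without these libraries. Levels are in CPM, the counts of a gene scaled by TMM to a common library total, and fold changes come from edgeR's quasi-likelihood test. A gene is said to have changed at an adjusted p under 0.05. A liver with fewer endothelial cells and one with less of an RNA per cell cannot be told apart in whole tissue.

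Per kilobase of exon, the level of the sinusoidal lectin Clec4g was the highest of the members in every group. In CON-GFP it was 26.6 ± 7.46 CPM per kb (SD, n = 6). Eng followed at 11.2 ± 2.65 CPM per kb, and Stab2 at 5.75 ± 0.766 CPM per kb. Stab1 (3.60 ± 0.805 CPM per kb), Kdr (2.97 ± 0.592 CPM per kb) and Lyve1 (2.71 ± 0.975 CPM per kb) came next, and neighbours among them did not differ beyond their SD, nor did Lyve1 and Pecam1 (1.82 ± 0.361 CPM per kb). Cd34, Vwf and Esm1 were the lowest, between 0.221 and 0.255 CPM per kb, and were not separated by their SD. So the sinusoidal genes and Eng dominated the levels of the members in the control liver, and Cd34, Vwf and Esm1 were at the lower end.

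In FPC-GFP the order was Clec4g, Eng, Stab2, Lyve1, Stab1, Kdr, Pecam1, Esm1, Vwf and Cd34. Stab2, Lyve1 and Stab1 were within their SD of each other, as were Kdr and Pecam1, and Esm1 and Vwf. In FPC-LIPA, Esm1 reached 2.42 ± 0.606 CPM per kb, within the SD of Pecam1 at 2.84 ± 1.05 CPM per kb. Cd34 was above Vwf there, at 0.576 ± 0.146 against 0.292 ± 0.0963 CPM per kb. In CON-GFP and FPC-GFP, Esm1 was far below Pecam1 (0.632 ± 0.229 against 3.31 ± 0.590 CPM per kb in FPC-GFP).

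**Figure D1:**
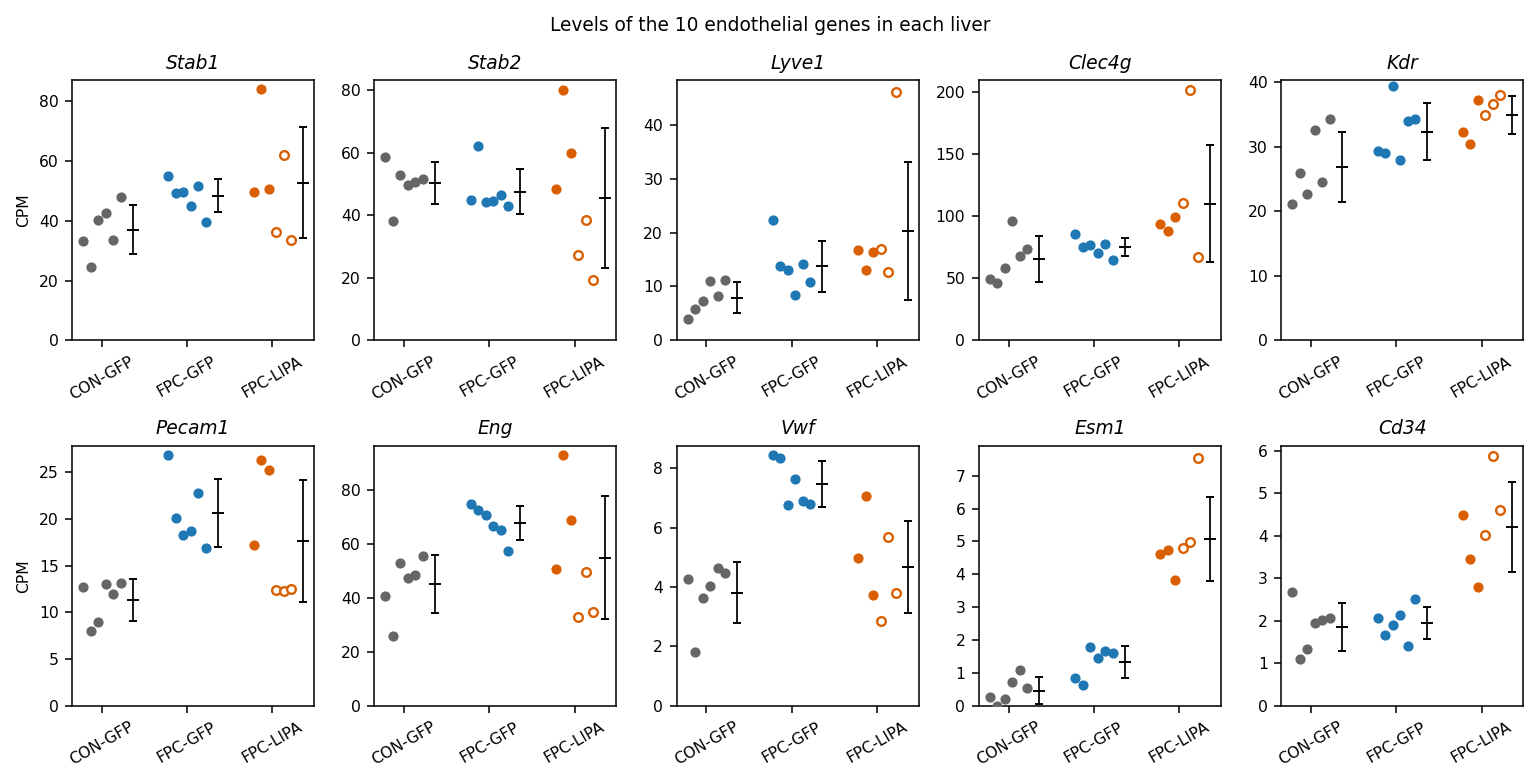
CPM of each gene in each of the 18 livers (y axis, linear from 0), grouped by CON-GFP, FPC-GFP and FPC-LIPA on the x axis; bars are mean ± SD (n = 6) and open circles are FPC-LIPA 36, 37 and 39. All 6 FPC-LIPA livers lie above all FPC-GFP livers for Esm1 and Cd34, and the open circles are low for Stab2, Pecam1 and Eng.

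The first comparison asked how the FPC diet changed these genes in mice with GFP. In FPC-GFP against CON-GFP, 5 of 10 members rose and none fell: the sinusoidal Lyve1 and the general or capillary Pecam1, Eng, Vwf and Esm1. At an unadjusted p under 0.05 edgeR had 6 risers and 0 fallers among them, and DESeq2 called 6 higher and 0 lower. Of all 14307 genes tested, 12.9% rose and 10.9% fell. The median log2 fold change was 0.49 over the members and 0.01 over all genes. Only Esm1 rose by at least 2-fold, a size that 4.76% of genes reached as risers. The sinusoidal genes thus held 1 of the 5 changed members, and the difference between the classes was not tested.

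Pecam1 encodes the junction protein CD31, found on all endothelium but not only there. It was at 7.98, 12.4 and 13.1 CPM (lowest, median, highest) in CON-GFP and at 16.9, 19.4 and 26.9 CPM in FPC-GFP. No FPC-GFP liver overlapped with CON-GFP. Pecam1 rose by 0.87 ± 0.15 on the log2 scale (SE, adjusted p = 0.00129). Among libraries with sample sheet numbers from 55 to 68, without CON-GFP 1, CON-GFP 2 and FPC-GFP 20, it rose by 0.86 (adjusted p = 0.00542).

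Vwf encodes von Willebrand factor, which endothelial cells store and which captures platelets. It was at 1.82, 4.16 and 4.64 CPM in CON-GFP and at 6.77, 7.28 and 8.43 CPM in FPC-GFP. Here too the groups did not overlap. Vwf rose by 0.97 ± 0.18 on the log2 scale (adjusted p = 0.00222), and by 0.86 within the sheet numbers (adjusted p = 0.00321). Itga2b and Pf4, from the list of platelet genes, had adjusted p of 0.784 and 0.477 in the same comparison. Both were low, with mean levels in CON-GFP and FPC-GFP of 2.71 and 2.87 CPM for Itga2b and 0.714 and 0.872 CPM for Pf4. A platelet source of Vwf was not tested.

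Eng encodes endoglin, a coreceptor for BMP9 and TGF-β. It was at 25.9, 47.9 and 55.5 CPM in CON-GFP and at 57.3, 68.6 and 74.8 CPM in FPC-GFP, again with no overlap. Eng rose by 0.59 ± 0.15 on the log2 scale (adjusted p = 0.0108), and by 0.45 within the sheet numbers (adjusted p = 0.0126). With all 18 libraries in one fit, its adjusted p was 0.0877. Pecam1, Vwf and Eng were the 3 members whose groups did not overlap upward, against 5.61% of all genes tested.

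Lyve1 encodes a hyaluronan receptor of sinusoidal and lymphatic endothelium. It was at 3.99, 7.78 and 11.1 CPM in CON-GFP and at 8.42, 13.4 and 22.3 CPM in FPC-GFP, with some overlap. Lyve1 rose by 0.80 ± 0.25 on the log2 scale (adjusted p = 0.0334). The call was lost within the sheet numbers (0.61, adjusted p = 0.115) and with any of 6 single libraries left out: CON-GFP 1, 2 or 3, or FPC-GFP 11, 12 or 19 (adjusted p from 0.0536 to 0.0782).

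Esm1 encodes endocan, a secreted proteoglycan known from the tip cells of growing vessels. It was counted with 0 to 38 reads in CON-GFP and with 20 to 54 reads in FPC-GFP. CON-GFP 2 had 0 reads, which allows up to 0.195 CPM (3 counts), and the highest CON-GFP liver, at 1.10 CPM, was above the 2 lowest of FPC-GFP. Esm1 rose by 1.42 ± 0.49 on the log2 scale (adjusted p = 0.0475). This call was near the threshold and was lost in 13 of 20 alternatives. Within the sheet numbers the value was 0.98 (adjusted p = 0.167). The adjusted p rose above 0.05 with any of 9 single libraries left out (CON-GFP 1, 2, 3, 6 or 8, or FPC-GFP 13, 16, 19 or 20). Under a filter of at least 1 CPM in 6 libraries, Esm1 was not tested for the diet.

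The stabilins, the scavenger receptors of the sinusoid, did not pass the test, with Stab1 close to the threshold. Stab1 was at 24.6, 36.9 and 48.0 CPM in CON-GFP and at 39.6, 49.5 and 55.1 CPM in FPC-GFP, a log2 difference of 0.39 ± 0.14 (adjusted p = 0.0538). It passed in 5 of 21 alternatives, among them DESeq2 (0.38, adjusted p = 0.0440) and scaling by library size alone (0.58, adjusted p = 0.0135). Stab2 was at 38.3, 51.2 and 58.7 CPM in CON-GFP and at 43.0, 44.7 and 62.3 CPM in FPC-GFP, with a log2 difference of -0.08 ± 0.12 (adjusted p = 0.663). FPC-GFP 12 alone was above all CON-GFP livers. Clec4g had a log2 difference of 0.20 ± 0.16 (adjusted p = 0.350). Kdr, the main VEGF receptor of endothelium, had 0.27 ± 0.14 (adjusted p = 0.160), and Cd34 had 0.06 ± 0.23 (adjusted p = 0.873). The groups overlapped for all 5 genes.

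Since Stab2 and Pecam1 were read in the same libraries, their ratio does not depend on scaling. There were 22.5 ± 3.36 Pecam1 reads per 100 Stab2 reads in CON-GFP (SD, n = 6), from 17.1 to 26.3. In FPC-GFP there were 44.0 ± 9.50, from 32.2 to 59.9. The groups did not overlap. Eng reads per 100 Stab2 reads went from 89.3 ± 16.6 in CON-GFP to 144 ± 18.1 in FPC-GFP, again without overlap (67.8 to 107 against 117 to 166). Stab1 reads per 100 Stab2 reads also went up, from 73.6 ± 13.8 to 103 ± 15.6, with overlap (56.4 to 92.7 against 79.3 to 123). The separation thus holds against Stab2, and ratios to Stab1 were not taken. These ratios show unequal levels of the genes and are given without a test.

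Macrophages also express Stab1 and Lyve1, and their marker list moved in the same comparison. Of the 12 Kupffer cell genes, 11 rose, among them Cd5l (log2 fold change 1.52) and C1qa (1.11), and the summed level of the list was from 349 to 547 CPM in CON-GFP and from 715 to 1135 CPM in FPC-GFP. Of 8 monocyte and leukocyte genes 4 rose, including Lyz2 (1.44) and Cd68 (1.60), with sums from 41.3 to 97.6 and from 103 to 312 CPM. Of 12 stellate and mesenchymal genes 3 rose (368 to 512 against 442 to 550 CPM), with Dcn at -0.03 (adjusted p = 0.878) and Ecm1 at 0.09 (adjusted p = 0.698). Of 5 cholangiocyte genes 1, Spp1, rose (28.3 to 48.4 against 42.1 to 107 CPM), and the adjusted p of Krt19 was 0.508. Of 8 hepatocyte genes 1 fell (78494 to 111151 against 67057 to 93251 CPM), while Alb and Apoa1 had adjusted p of 0.466 and 0.723. Of the 2 tested platelet genes 0 passed in edgeR, in DESeq2 or at an unadjusted p under 0.05 (3.24 to 4.28 against 3.21 to 4.92 CPM over the list, with Gp1bb at 0 in every library). The part of these cells in the results of the members, Pecam1 among them, was not tested.

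The second comparison asked what LIPA in hepatocytes changed under the FPC diet. Against FPC-GFP, 2 of 10 members rose in FPC-LIPA, Esm1 and Cd34, and none fell. Both belong to the general or capillary genes and both rose by at least 2-fold. The rest of that class, Pecam1, Eng and Vwf, had lower values that did not pass edgeR's test. Over the 10 members edgeR had 3 risers and 1 faller at an unadjusted p under 0.05, and DESeq2 called the same numbers at its adjusted p. Of all 14620 genes tested, 14.4% rose and 6.87% fell, and 10.3% rose by at least 2-fold. The members' median log2 fold change was 0.17, against 0.04 over all genes. For these 2 members alone the groups did not overlap, which held upward for 3.36% of genes. With FPC-LIPA 36, 37 and 39 left out, 1 member rose and 0 fell (4 and 1 at an unadjusted p under 0.05), while 1.11% of 15246 genes rose and 0.112% fell.

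Esm1 was at 0.617, 1.53 and 1.79 CPM in FPC-GFP and at 3.81, 4.76 and 7.54 CPM in FPC-LIPA. The lowest FPC-LIPA liver was thus above the highest FPC-GFP liver by more than the whole FPC-GFP range. In reads, it had 20 to 54 in FPC-GFP and 105 to 193 in FPC-LIPA. Esm1 rose by 2.00 ± 0.30 on the log2 scale (adjusted p = 0.00790), rank 10 of 14620 by p. Within the sheet numbers, which leave out FPC-GFP 20 and FPC-LIPA 37, it rose by 1.89 (adjusted p = 0.0391). With FPC-LIPA 36, 37 and 39 left out it rose by 1.74 ± 0.31 (adjusted p = 0.0296).

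Cd34, a sialomucin of capillary endothelium that is also found on blood progenitors and some fibroblasts, was at 1.41, 1.97 and 2.50 CPM in FPC-GFP and at 2.79, 4.25 and 5.88 CPM in FPC-LIPA. All FPC-LIPA livers were above all FPC-GFP livers. Cd34 rose by 1.17 ± 0.24 on the log2 scale (adjusted p = 0.0127), and by 1.21 within the sheet numbers (adjusted p = 0.0498). When FPC-LIPA 36, 37 and 39 were left out the value was 0.90 ± 0.25, and the call was lost (adjusted p = 0.0943). The highest Cd34 level was in FPC-LIPA 39.

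The other 8 members did not pass the test. Vwf was at 2.84, 4.39 and 7.08 CPM in FPC-LIPA, with 5 of 6 livers below all of FPC-GFP, a log2 difference of -0.62 ± 0.21 (adjusted p = 0.0503). The DESeq2 Wald test gave Vwf -0.61 (adjusted p = 0.0268), and without FPC-LIPA 33 edgeR gave -0.77 (adjusted p = 0.0108). Clec4g was at 67.5, 96.7 and 202 CPM in FPC-LIPA, a log2 difference of 0.61 ± 0.23 (adjusted p = 0.0651). DESeq2 gave Clec4g 0.62 (adjusted p = 0.0367), and without FPC-LIPA 33 edgeR gave 0.67 (adjusted p = 0.0360). The calls over all genes went from 3102 to 4422 with DESeq2 and to 5582 without FPC-LIPA 33. Leaving out FPC-LIPA 36, 37 and 39 gave -0.49 for Vwf (adjusted p = 0.227) and 0.33 for Clec4g (adjusted p = 0.160).

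Lyve1 was at 12.7, 16.6 and 46.2 CPM in FPC-LIPA, with a log2 difference of 0.64 ± 0.34 (adjusted p = 0.166). The value was 0.17 without FPC-LIPA 36, 37 and 39. Kdr was at 30.4, 35.8 and 38.0 CPM, with the smallest spread relative to its mean of the 10 genes in this group, and had a log2 difference of 0.17 ± 0.15 (adjusted p = 0.409). Stab1 ranged from 33.5 to 84.0 CPM (0.17 ± 0.20, adjusted p = 0.538). Stab2 ranged from 19.2 to 80.2 CPM (-0.02 ± 0.27, adjusted p = 0.957).

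Pecam1 was at 12.3, 14.9 and 26.3 CPM in FPC-LIPA (log2 difference -0.18 ± 0.21, adjusted p = 0.554). Eng was at 33.0, 50.1 and 93.1 CPM (-0.26 ± 0.22, adjusted p = 0.393). The sign turned without FPC-LIPA 36, 37 and 39 for Pecam1 (0.17), Eng (0.08) and Stab2 (0.42), with adjusted p of 0.652, 0.841 and 0.218. For each of them the lowest FPC-LIPA liver was below all of FPC-GFP, and for Eng and Stab2 the highest was above all of it.

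**Figure D2:**
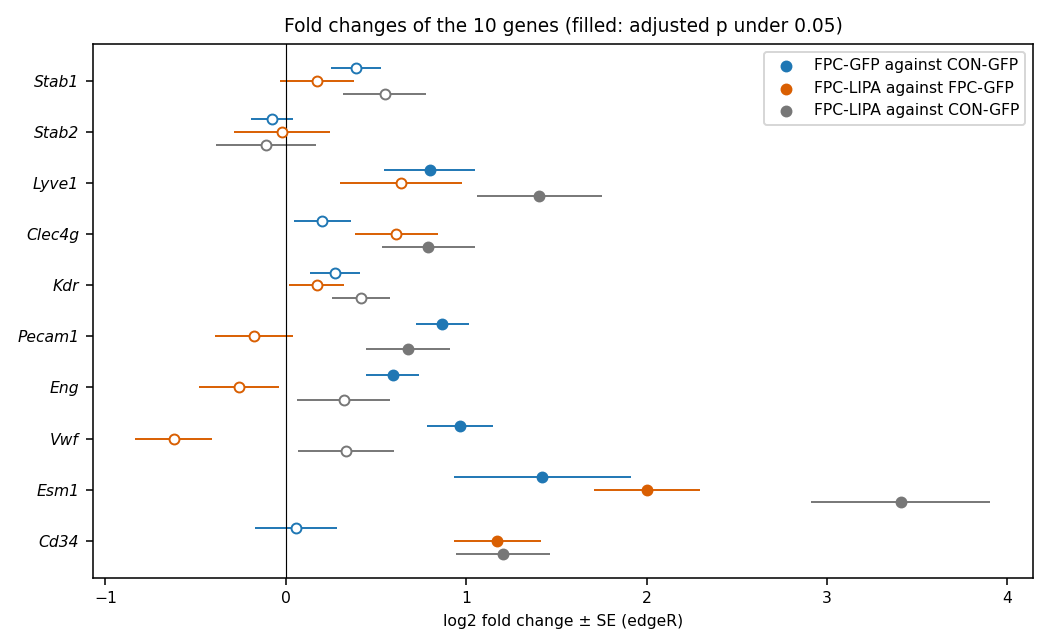
Log2 fold change ± SE (x axis) of each gene (y axis) in the 3 comparisons from edgeR, with 12 livers each; filled points have an adjusted p under 0.05. Esm1 lies farthest to the right in all 3 comparisons, and Pecam1, Eng and Vwf lie right of 0 for the diet and left of 0 for FPC-LIPA against FPC-GFP, where none of them passed the test.

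The livers of the FPC-LIPA group differed among themselves. In FPC-LIPA 36 and 37, 5 of 10 members were below all FPC-GFP livers and 3 above all of them. In FPC-LIPA 39 the numbers were 4 and 4. In FPC-LIPA 33, 0 members were below and 6 above all FPC-GFP livers. FPC-LIPA 31 had 2 below and 3 above, and FPC-LIPA 34 had 1 and 3. Of all 14620 genes tested, 37.3% to 43.8% lay below and 31.2% to 33.6% above all FPC-GFP livers in FPC-LIPA 36, 37 and 39, so their counts of members were near the shares of all genes. In the other 3 livers 18.2% to 25.2% of genes lay below and 20.0% to 24.9% above. Stab2 was lowest in FPC-LIPA 37 (19.2 CPM), 36 (27.2 CPM) and 39 (38.5 CPM), all below the lowest FPC-GFP liver at 43.0 CPM, and Pecam1 was between 12.3 and 12.6 CPM in those 3 livers against 17.2 to 26.3 CPM in the other FPC-LIPA livers. Esm1 and Cd34 were above all FPC-GFP livers in every FPC-LIPA liver, whatever its share of ribosomal protein genes.

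**Figure D3:**
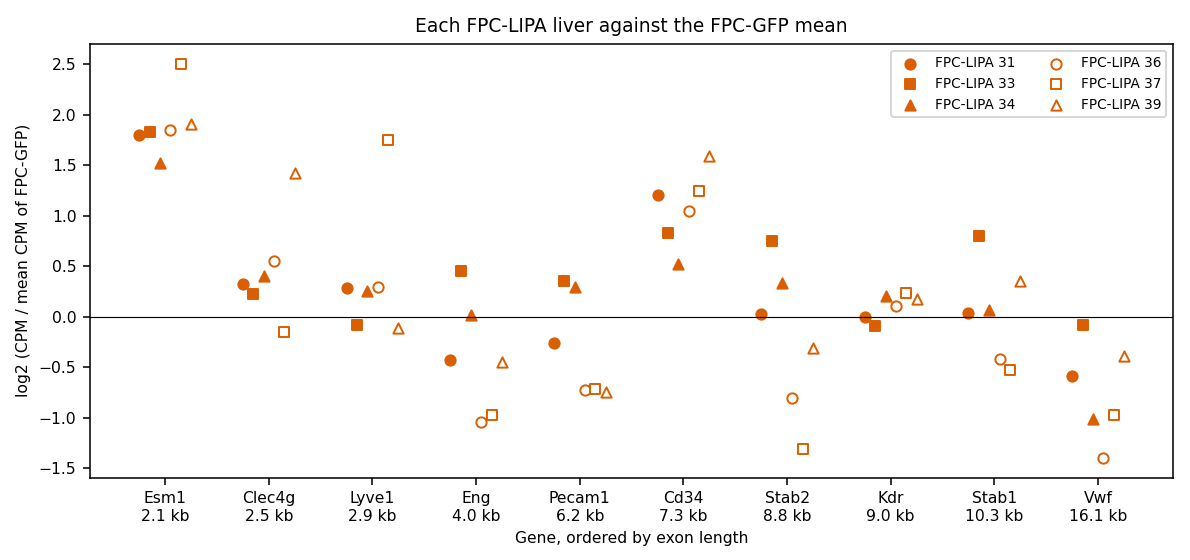
Log2 of each FPC-LIPA liver's CPM over the mean CPM of the 6 FPC-GFP livers (y axis), with the genes ordered by exon length on the x axis; open symbols are FPC-LIPA 36, 37 and 39. Esm1 and Cd34 are above 0 and Vwf is below 0 in all 6 livers. The open symbols are below 0 for Eng, Pecam1 and Stab2, as is FPC-LIPA 31 for Eng and Pecam1.

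Ratios within a library show how far Esm1 moved against other endothelial genes. Per 100 Kdr reads there were 1.71 ± 1.54 Esm1 reads in CON-GFP (SD, n = 6), 4.05 ± 1.25 in FPC-GFP and 14.5 ± 3.14 in FPC-LIPA. The FPC-LIPA livers, from 10.2 to 19.8, were all above the FPC-GFP livers, from 2.12 to 5.21. Per 100 Pecam1 reads there were 6.74 ± 2.98 Esm1 reads in FPC-GFP and 33.1 ± 16.7 in FPC-LIPA. For Cd34 there were 16.2 ± 2.59 reads per 100 Pecam1 reads in CON-GFP, 9.77 ± 3.09 in FPC-GFP and 27.8 ± 14.1 in FPC-LIPA, where 2 of 6 livers were within the range of FPC-GFP. Without FPC-LIPA 36, 37 and 39, in which Pecam1 was low, the FPC-LIPA means were 20.0 ± 6.16 Esm1 reads and 16.8 ± 8.20 Cd34 reads per 100 Pecam1 reads, and 13.4 ± 2.78 Esm1 reads per 100 Kdr reads (n = 3). So Esm1 was apart between FPC-GFP and FPC-LIPA against Kdr, and Cd34 against Pecam1 was not. No test was run on the ratios.

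**Figure D4:**
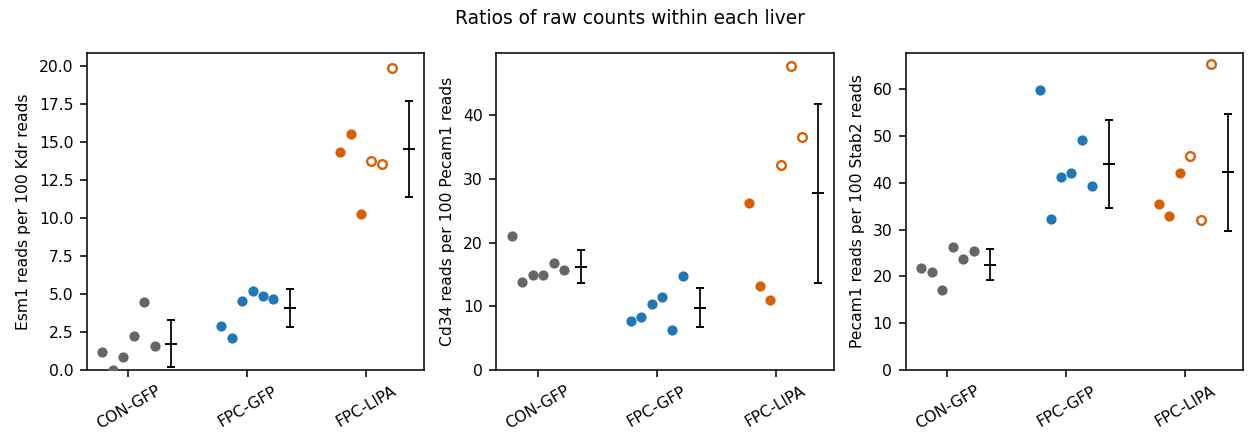
Ratios of raw counts in each liver (y axes, linear from 0): Esm1 reads per 100 Kdr reads, Cd34 reads per 100 Pecam1 reads and Pecam1 reads per 100 Stab2 reads, by group on the x axis, with mean ± SD (n = 6) and open circles for FPC-LIPA 36, 37 and 39. Esm1 to Kdr is highest in all FPC-LIPA livers, and Pecam1 to Stab2 is higher in all FPC-diet livers than in CON-GFP.

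FPC-LIPA against CON-GFP joins the diet and the vector, which cannot be told apart in it, and it shares its libraries with the comparisons above. Here 5 of 10 members rose, against 14.7% of 14433 genes, and 3 of them by at least 2-fold, against 11.8%. The groups were apart for 3 members (Esm1, Lyve1 and Cd34), against 5.58% of genes upward. The risers were Esm1 (log2 fold change 3.41 ± 0.50, adjusted p = 0.000360), Lyve1 (1.41 ± 0.35, adjusted p = 0.0106), Cd34 (1.21 ± 0.26, adjusted p = 0.00492), Clec4g (0.79 ± 0.26, adjusted p = 0.0393) and Pecam1 (0.68 ± 0.23, adjusted p = 0.0481). None fell, also at an unadjusted p under 0.05 and by DESeq2 (0 members each), while 8.2% of genes did. Stab1 had 0.55 (adjusted p = 0.0975), Kdr 0.42 (adjusted p = 0.0741), Eng 0.32 and Vwf 0.33 (adjusted p = 0.370 for each), and Stab2 -0.11 (adjusted p = 0.793). Without FPC-LIPA 36, 37 and 39, Clec4g no longer passed (0.54, adjusted p = 0.0981), Stab1 did (0.75, adjusted p = 0.0321), and 11.7% of genes rose and 6.33% fell. Clec4g and Pecam1 each lost the call in 12 of 23 alternatives, with adjusted p up to 0.138 and 0.127. Among them were 7 single libraries left out for Clec4g (CON-GFP 1, 2, 3, 7 or 8, or FPC-LIPA 36 or 39) and 9 for Pecam1 (any CON-GFP library, or FPC-LIPA 31, 33 or 34). Stab1 and Kdr each gained it in 4. The Esm1 counts of CON-GFP were low enough that the fold change depends on few reads, and leaving out single libraries gave values from 3.19 to 3.85.

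Of 14 further sinusoidal genes, 4 rose with the diet and none fell: Flt4, the lymphatic VEGF receptor (0.98 ± 0.15, adjusted p = 0.000683), the scavenging receptor Gpr182 (0.63, adjusted p = 0.0134), the nuclease Dnase1l3 (0.56, adjusted p = 0.0152) and Oit3 (0.43, adjusted p = 0.0473). The most abundant per length, the water channel Aqp1 and the Fc receptor Fcgr2b, had adjusted p of 0.204 and 0.825. With LIPA, set against FPC-GFP, 3 rose and 1 fell. Of all genes tested, 14.4% rose and 6.87% fell in that comparison, and 12.9% rose and 10.9% fell with the diet. The same shares apply to the lists below. The risers were Clec1b (1.08, adjusted p = 0.0139), the mannose receptor Mrc1, also found on macrophages (1.24, adjusted p = 0.0152), and Bmp2, a signal to hepatocytes for hepcidin (1.56, adjusted p = 0.0154). Wnt9b, a signal of central endothelium, fell by 1.26 on the log2 scale (adjusted p = 0.0349). Clec1b alone of this list passed without FPC-LIPA 36, 37 and 39 (0.97, adjusted p = 0.0406), with Bmp2 at 0.57, Mrc1 at 0.54 and Wnt9b at -0.86. In that setting 2 of 12 Kupffer cell genes rose too, Cd5l (1.08) and Adgre1 (1.35). The cell source of the Clec1b reads was not tested. Against CON-GFP, 6 of the list rose in FPC-LIPA, with Mrc1 at 1.57, Clec1b at 1.34, Gpr182 at 0.87 and Oit3 at 0.84, and 8 did without the 3 libraries.

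Of 22 further genes of all endothelium, 9 rose with the diet, none fell, and the median was 0.44. Cdh5, the VE-cadherin of endothelial junctions, rose by 1.13 ± 0.13 on the log2 scale (adjusted p = 0.000158), from 8.82 to 15.3 CPM in CON-GFP to between 22.1 and 28.5 CPM in FPC-GFP. Rasip1 (0.75), the transcription factor gene Sox18 (0.98) and Icam2 (0.76) rose too, while the abundant Egfl7 and Esam had adjusted p of 0.129 and 0.0918. Set against FPC-GFP, FPC-LIPA had 5 risers: Adgrl4 (1.94 ± 0.37, adjusted p = 0.0110), Clec14a (1.23, adjusted p = 0.0127), the tight junction gene Cldn5 (0.84, adjusted p = 0.0159), Myct1 (0.74, adjusted p = 0.0203) and Icam2 (0.70, adjusted p = 0.0243). The groups were apart for each of these 5 genes. Of all genes tested, 14.4% rose in this comparison, and the groups were apart upward for 3.36%. Cdh5 was at 0.16 there (adjusted p = 0.674). Of these genes 1, Adgrl4, passed without FPC-LIPA 36, 37 and 39 (0.80, adjusted p = 0.0333), with Clec14a at 0.79, Icam2 at 0.58, Cldn5 at 0.56 and Myct1 at 0.46. At an unadjusted p under 0.05 the risers were 7 with and 9 without the 3 libraries. Of the list, 13 were higher in FPC-LIPA than in CON-GFP, and 15 without the 3 libraries.

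Of 10 capillary and sprouting genes 6 were abundant enough to test. With the diet 4 rose, Unc5b (1.14, adjusted p = 0.00163), the Notch ligand Dll4 (1.02, adjusted p = 0.00168), Mcam (0.57, adjusted p = 0.0246) and Plvap, the protein of fenestral diaphragms (0.57, adjusted p = 0.0405). Cav1, the caveolin of continuous capillaries, fell by 1.30 on the log2 scale (adjusted p = 0.00730). With LIPA 1 rose against FPC-GFP, Mcam (0.52, adjusted p = 0.0291), and against CON-GFP 2 rose, Mcam and Dll4. Of all genes tested, 14.4% rose against FPC-GFP and 14.7% against CON-GFP. Unc5b rose against CON-GFP as well without FPC-LIPA 36, 37 and 39 (1.02, adjusted p = 0.0165).

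Basement membrane genes rose with the diet in 6 of 8 cases, with a median of 0.83. Nid1 (nidogen) was at 1.91 ± 0.37 (adjusted p = 0.00268), the laminin gene Lamc1 at 1.29 (adjusted p = 0.000736) and Col4a1 at 1.19 (adjusted p = 0.00666), with Hspg2 (0.83) and Lama4 (0.80) beside them. The FPC-GFP livers spread widely for Nid1, at 14.6, 20.2 and 83.0 CPM (lowest, median, highest), and for Col4a1, at 29.0, 45.0 and 106 CPM. In CON-GFP, Nid1 was at 5.58 to 11.0 CPM and Col4a1 at 14.5 to 33.7 CPM. The summed level of the list was from 52.1 to 106 CPM in CON-GFP and from 117 to 303 CPM in FPC-GFP. These genes are also expressed by stellate cells. In FPC-LIPA against FPC-GFP 0 of 8 passed edgeR's test, with 1 higher and 3 lower at an unadjusted p under 0.05 and 1 in each direction by DESeq2. In this comparison 7 had a lower value, with Lamc1 at -0.70 (adjusted p = 0.0502). Against CON-GFP 2 rose, Nid1 (1.48) and Lama4 (1.23). Without FPC-LIPA 36, 37 and 39, 0 of 8 passed against FPC-GFP (0 at an unadjusted p under 0.05), and 4 rose against CON-GFP, with Lamc1 (0.98) and Col4a1 (0.87) added.

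Of 19 tested ligands and receptors of the VEGF, angiopoietin and BMP9 pathways, 7 rose with the diet. They included Nrp2, a VEGF coreceptor (1.12, adjusted p = 0.00123), Acvrl1, the BMP9 receptor that works with endoglin (1.03, adjusted p = 0.00245), Smad6, an inhibitor of that pathway (0.79, adjusted p = 0.0111), and Flt4. In FPC-LIPA against FPC-GFP none rose by edgeR (1 at an unadjusted p under 0.05 and 1 by DESeq2) and 2 fell: Nrp2 by 0.75 (adjusted p = 0.0305) and Nrp1 by 0.70 (adjusted p = 0.0465) on the log2 scale. Of all genes tested, 14.4% rose and 6.87% fell there. Vegfa, the ligand of Kdr, was at 89.6 to 165 CPM in FPC-GFP and 53.9 to 169 CPM in FPC-LIPA (-0.16, adjusted p = 0.673), and Id1, a target of BMP signals, had an adjusted p of 0.199. Against CON-GFP, Acvrl1 rose (1.18) and Nrp1 fell by 0.95 on the log2 scale. In the fit that leaves out FPC-LIPA 36, 37 and 39, 5 genes of the list rose against CON-GFP, with Vegfb (1.08), Flt4 (1.00), Tie1 (0.85) and Nrp2 (0.76) added, and Nrp1 fell.

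Of 4 tested adhesion genes, Icam1 rose with the diet (1.23 ± 0.20, adjusted p = 0.000902) and Vcam1 in FPC-LIPA against FPC-GFP (1.12 ± 0.32, adjusted p = 0.0289). Both rose against CON-GFP, where Vcam1 lost the call without FPC-LIPA 36, 37 and 39 (0.58, adjusted p = 0.108) and Ackr1 gained it (1.42, adjusted p = 0.0198). The lymphatic list had 3 testable genes. Flt4 rose with the diet, and Prox1, which hepatocytes also express, fell by 0.48 on the log2 scale in FPC-LIPA against FPC-GFP (adjusted p = 0.0344) and by 0.94 against CON-GFP. Prox1 without FPC-LIPA 36, 37 and 39 was at -0.44 against FPC-GFP, where the call was lost (adjusted p = 0.117), and fell by 0.87 against CON-GFP (adjusted p = 0.0172). In that setting the podoplanin gene Pdpn passed the filter on low counts, which it did not with all FPC-LIPA livers kept. The filter asks for enough reads in as many libraries as the smaller group holds, there the 3 FPC-LIPA livers left. Pdpn could thus enter through the group where it was higher. Its log2 fold changes of 2.54 against FPC-GFP and 2.70 against CON-GFP are therefore no test of a rise. Flt4 rose there against CON-GFP. Of the 6 rows of the lymphatic list, only a row of Ccl21a, a defining lymphatic gene, was at 0 in every library. The capillary, VEGF and adhesion lists held 0 genes changed by edgeR in FPC-LIPA against FPC-GFP without FPC-LIPA 36, 37 and 39, with 2, 1 and 0 genes at an unadjusted p under 0.05.

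**Figure D5:**
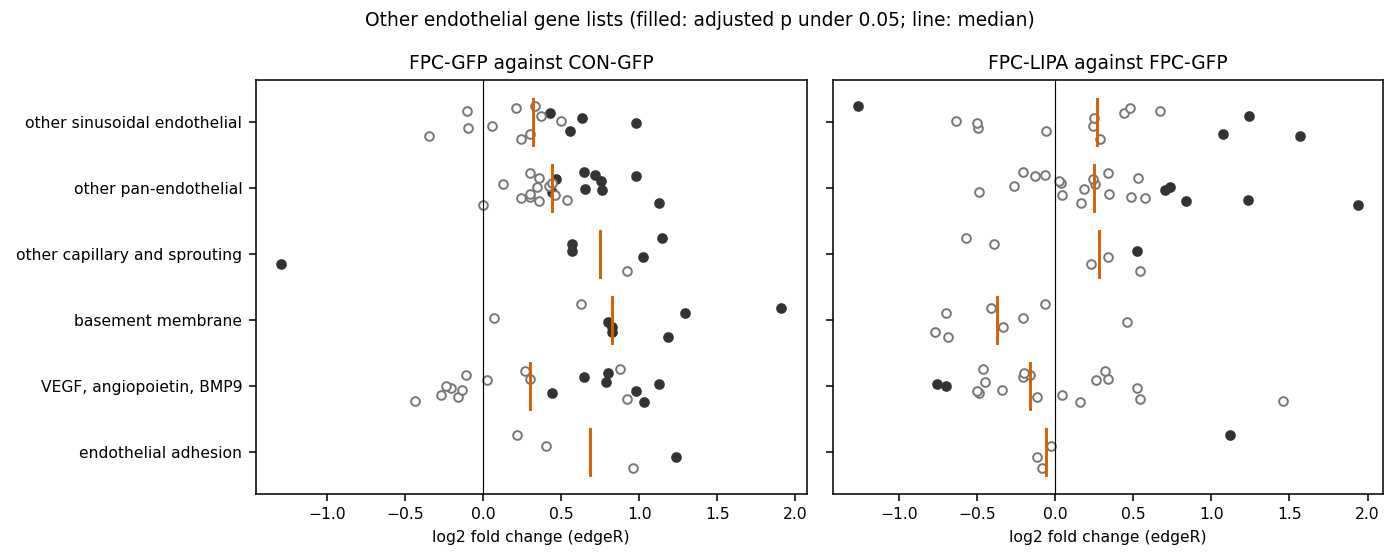
Log2 fold changes (x axes) of the tested genes in 6 endothelial lists (y axis) for FPC-GFP against CON-GFP and FPC-LIPA against FPC-GFP, 1 point per gene; filled points have an adjusted p under 0.05 and orange lines are list medians. The basement membrane median is 0.83 for the diet and -0.37 for FPC-LIPA against FPC-GFP.

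The non-endothelial lists moved as well in FPC-LIPA against FPC-GFP. The Kupffer cell list rose in 5 of 12 genes (sum 844 to 1531 CPM against 715 to 1135 CPM), and the monocyte and leukocyte list in 5 of 8 (419 to 722 against 103 to 312 CPM), with Lyz2 at 1.88. The stellate and mesenchymal list rose in 4 of 12 (520 to 1156 against 442 to 550 CPM), among them Dcn (0.88, adjusted p = 0.0449), a gene of fibroblasts, some of which also carry Cd34. Of the platelet and cholangiocyte genes 0 passed edgeR's test (1 and 0 at an unadjusted p under 0.05 and, by number, the same by DESeq2), with sums of 4.42 to 7.60 and 36.3 to 190 CPM in FPC-LIPA, and 1 hepatocyte gene fell (54077 to 81008 CPM). In FPC-LIPA against CON-GFP the counts were 11 of 12 Kupffer cell genes higher, 7 of 8 monocyte and leukocyte genes, 4 stellate genes higher and 1 lower, 1 platelet gene and 1 cholangiocyte gene higher, and 4 hepatocyte genes lower. Without FPC-LIPA 36, 37 and 39, the counts against FPC-GFP were 2 Kupffer cell genes (9 at an unadjusted p under 0.05), 2 monocyte and leukocyte genes (7) and 0 stellate genes (4), with Lyz2 at 1.46 (adjusted p = 0.0418) and Dcn at 0.35 (adjusted p = 0.220). The platelet, cholangiocyte and hepatocyte lists held 0 changed genes there (1, 0 and 2 at an unadjusted p under 0.05). Against CON-GFP they were 11 Kupffer cell, 7 monocyte and leukocyte, 4 stellate, 1 platelet and 1 cholangiocyte genes higher and 3 hepatocyte genes lower. The part of these cells in the results of Esm1 and Cd34 was not tested.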

How the data were processed

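RNA from whole livers of 18 male mice was sequenced, with 1 library per mouse. The deposited values are raw counts per gene. The authors trimmed paired reads with Trimmomatic, mapped them with HISAT2 2.1.0 to GRCm38 (mm10) and counted them with Feature Counts. The sources used here name both a stranded and an unstranded kit, so reads of overlapping antisense genes may be included. Of the table's columns, 18 were matched to the groups and 5 were not used here.

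Genes were kept with filterByExpr, scaled by TMM and tested with edgeR 4.0.16 (R 4.3.3), using the quasi-likelihood test on the 12 libraries of each comparison and Benjamini-Hochberg adjustment over all tested genes. An SE is the log2 fold change divided by the square root of F. Exon lengths came from GENCODE M21. The fits were tested on simulated data. Libraries within a group differed by a chi-square of 16.7 to 648 per degree of freedom, far more than counting noise, and no library was a repeat of another.

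The members and lists were chosen with earlier results of these data known. The lists were 7 endothelial ones (sinusoidal, pan-endothelial, capillary, basement membrane, VEGF pathway, adhesion, lymphatic) and Kupffer, monocyte, stellate, platelet, cholangiocyte and hepatocyte genes. Named were all members, the 2 genes of each list with the highest level per length, and up to 4 changed genes with the smallest p per endothelial list and comparison. Alternatives were other scalings, DESeq2 1.42.0, other filters, all 18 libraries in one fit, sample sheet numbers 55 to 68, each library left out, removal of the trend on gene length and other thresholds. Leaving out FPC-LIPA 36, 37 and 39 together was chosen after seeing the data. The genes named for a call gained there were chosen after their values were seen.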

Additional observations from a re-analysis of the deposited data

Results flagged for a closer look

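Among the 30 groups of 6 livers (10 genes in 3 groups), 5 held a liver far from the others by Dixon's test, which flags about 1 in 20 groups by chance. Stab2 was at 62.3 CPM in FPC-GFP 12, with 43.0 to 46.5 CPM elsewhere in its group. Vwf was at 1.82 CPM in CON-GFP 2, with 3.64 to 4.64 CPM elsewhere in its group. The other 3 were in FPC-LIPA 37 or 39. Lyve1 was at 46.2 CPM in FPC-LIPA 37, against 12.7 to 16.9 CPM. Esm1 was at 7.54 CPM in the same liver, against 3.81 to 4.97 CPM. Clec4g was at 202 CPM in FPC-LIPA 39, against 67.5 to 110 CPM. Both livers had a high share of ribosomal protein genes (8.21% and 8.29%).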

How the results depend on the processing

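Over 30 fold changes of single members and 669 alternatives, 574 kept their direction and side of the threshold, 48 lost the call, 20 gained it and 27 changed sign. Every change of sign was in a value that did not pass the test. Esm1 in FPC-LIPA against FPC-GFP passed in each alternative (1.65 to 2.1, adjusted p up to 0.0424). Scaling by library size alone moved the median of all genes from 0.01 to 0.21 for the diet and from 0.04 to -0.09 for FPC-LIPA against FPC-GFP.

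For the diet, 5 changed members became 2 with all 18 libraries in one fit, 3 within sheet numbers 55 to 68, 1 with a fold change of at least 2, 2 at an adjusted p under 0.01, and 3 to 5 with single libraries left out (3 without CON-GFP 1, 2 or 3 or FPC-GFP 19). It became 6 with DESeq2 (Stab1 added) and 7 by library size alone (Stab1 and Kdr added). For FPC-LIPA against FPC-GFP, 2 became 4 with DESeq2 or all 18 libraries in one fit (Vwf and Clec4g added), 1 at an adjusted p under 0.01, 1 without FPC-LIPA 36, 37 and 39, 1 with the length trend removed too, and 2 to 4 with single libraries left out (4 without FPC-LIPA 33). For FPC-LIPA against CON-GFP, 5 became 3 with no filter, within the sheet numbers or at 2-fold, 2 at an adjusted p under 0.01, and 3 to 5 with single libraries left out (3 without CON-GFP 1, 2, 3, 7 or 8). It became 6 with DESeq2, upper-quartile factors or the length trend removed, and 7 with all 18 libraries in one fit. The cause was not tested. All genes called in FPC-LIPA against FPC-GFP went from 3102 to 186 without FPC-LIPA 36, 37 and 39, to 86 with the length trend removed too, and to 104 within the sheet numbers. These fits have fewer libraries. In the same comparison the calls went to 4422 with DESeq2, 4701 with all 18 libraries in one fit and 5582 without FPC-LIPA 33. For the diet they went from 3410 to 1352 in one fit, 1995 within the sheet numbers, 4043 with DESeq2 and 4079 by library size alone. For FPC-LIPA against CON-GFP they went from 3304 to 4868 in one fit and 4434 with DESeq2.

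Sign changes for the diet were Stab2 by library size alone (0.12) and Cd34 within the sheet numbers (-0.0095), with the length trend removed (-0.00096) or with single libraries left out (-0.040 to 0.19). In FPC-LIPA against FPC-GFP, Stab1 was from -0.0021 to 0.26 and Stab2 from -0.26 to 0.12 with single libraries left out. Stab2 was 0.031 with upper-quartile factors, 0.00090 with at least 1 CPM in 6 libraries, 0.10 within the sheet numbers and 0.089 with the length trend removed. Without FPC-LIPA 36, 37 and 39, and then with the length trend removed too, Stab2 was 0.42 and 0.45, Pecam1 0.17 and 0.18, and Eng 0.078 and 0.055. In FPC-LIPA against CON-GFP, Stab2 was 0.043 by library size alone, 0.016 within the sheet numbers, -0.36 to 0.029 with single libraries left out, and 0.34 and 0.33 in those last settings. No paired analysis was possible because the groups share no replicate numbers. Esm1 with 0 to 38 reads in CON-GFP is the member most limited by depth.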
